A study of Mus musculus with 6 samples.

Results

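The deposited table of mouse colon RNA-seq read counts has 2033 rows, and 353 of them (17.4%) are loci that carry only an assembly identifier and the gene type novel_gene (183 loci) or novel_lncRNA (170 loci). These 353 rows were taken by those gene types alone, without use of their counts. Colon of control mice was compared with colon of mice exposed long-term to PFOA (perfluorooctanoic acid, a persistent fluorinated surfactant), with 3 libraries per group. Tissue of 6 mice per group was frozen according to the labels, but the mice behind each library are not named, and p-values therefore rest on the spread of 3 libraries that may be technical. Strain, dose, sex, age and part of the colon are not in the labels, and an effect of PFOA and a difference in the sampled part of the colon cannot be told apart.

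Assembled loci of this kind arise when reads are joined into transcripts that the reference annotation does not hold. Many such transcripts are long non-coding RNAs, which are spliced or unspliced RNAs without a recognised protein and often lie between genes or opposite to them, and others are fragments of the introns of longer genes that are read as separate units. The class code of the table is read here by the convention of transcript comparison programs. Code u marks a locus between genes, code i a locus within an intron of a reference gene, and code x a locus whose exons overlap a reference exon on the other strand.

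By class code, 177 loci were u, 145 were i and 29 were x, and 1 locus each carried the joint codes x,i and x,u. None of the 177 u loci overlapped a gene of GENCODE M21 (build GRCm38, the mm10 assembly), 142 of the 145 i loci overlapped one, and all 29 x loci overlapped an M21 exon on the other strand. RefSeq holds more of them: 42 of the 177 u loci overlapped a RefSeq gene, 33 of these a RefSeq lncRNA gene, and 135 overlapped none. The median Length in the table was 677 bases for u, 2555 for i and 3614 for x, against 4083 for the 1220 rows typed protein_coding. A locus is called spliced here when its span exceeds its Length, which held for 160 of the 170 novel_lncRNA loci and for 32 of the 183 novel_gene loci. No splice junctions were read, so that any gap between assembled pieces counts as spliced by this rule. The loci lay on all autosomes and on X and Y, from 3 on Y and 6 on chromosome 19 to 31 on chromosome 2 and 34 on chromosome 4. As a share of the listed rows of a chromosome they ranged from 9.38% on chromosome 19 to 31.2% on chromosome 14 outside Y.

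For 8 loci, all of them spliced, the assembled 5′ end lay within 100 bases of a RefSeq gene start on the same strand, and 7 of these were tested. The start regions of the 2 with the largest rise and the 2 with the largest fall are shown, because they give the DNA at which transcription of these otherwise unnamed loci begins in the annotation. Each is the RefSeq window of GRCm38.p6 on the strand of the gene, 250 bases before and 50 after the start, which is base 251. The RefSeq start lay 15 bases downstream of the assembled end for Gm30235 (locus MSTRG.14094), 74 downstream for Gm32558 (MSTRG.17386), 4 downstream for Gm31713 (MSTRG.1247) and 52 upstream for Gm52305 (MSTRG.9254). Capitals mark matches, read on both strands, to CCAAT, a common promoter box, and to CAATAAA, a core bound by posterior Hox and Cdx proteins. The letters TATAAA and AGGTCANAGGTCA, the direct repeat bound by PPAR and HNF4 receptors, were searched too.

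Gm30235, higher in PFOA, chr3:52649639-52649938, plus strand: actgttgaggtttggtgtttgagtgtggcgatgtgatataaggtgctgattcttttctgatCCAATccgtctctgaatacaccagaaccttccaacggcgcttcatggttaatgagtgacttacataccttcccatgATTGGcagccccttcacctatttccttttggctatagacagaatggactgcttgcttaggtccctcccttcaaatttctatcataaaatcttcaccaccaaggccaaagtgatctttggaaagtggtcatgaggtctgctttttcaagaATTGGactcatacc

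Gm32558, higher in PFOA, chr5:75675002-75675301, plus strand: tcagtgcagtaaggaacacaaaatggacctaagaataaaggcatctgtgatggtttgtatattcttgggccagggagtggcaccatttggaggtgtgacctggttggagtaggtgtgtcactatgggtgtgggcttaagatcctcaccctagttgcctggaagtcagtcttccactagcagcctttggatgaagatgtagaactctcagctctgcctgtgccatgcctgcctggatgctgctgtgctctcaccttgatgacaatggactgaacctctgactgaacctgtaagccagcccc

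Gm31713, lower in PFOA, chr1:155438459-155438758, minus strand: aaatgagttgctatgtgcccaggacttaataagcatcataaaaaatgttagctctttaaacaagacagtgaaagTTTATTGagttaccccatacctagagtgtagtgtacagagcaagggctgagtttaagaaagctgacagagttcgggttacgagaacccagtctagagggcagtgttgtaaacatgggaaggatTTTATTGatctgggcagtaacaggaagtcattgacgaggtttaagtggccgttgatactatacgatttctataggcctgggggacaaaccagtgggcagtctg

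Gm52305, lower in PFOA, chr17:5527312-5527611, minus strand: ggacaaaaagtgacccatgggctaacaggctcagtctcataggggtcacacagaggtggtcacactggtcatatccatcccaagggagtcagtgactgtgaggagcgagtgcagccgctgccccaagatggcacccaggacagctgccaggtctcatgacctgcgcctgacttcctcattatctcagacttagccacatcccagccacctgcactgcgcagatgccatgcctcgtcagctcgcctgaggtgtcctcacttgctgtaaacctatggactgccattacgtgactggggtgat

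The Gm30235 window held 3 CCAAT matches and the Gm31713 window 2 CAATAAA matches, and neither Gm32558 nor Gm52305 held any of the 4 motifs. Over all 32851 RefSeq windows of this length, 37.4% held CCAAT, 13.6% TATAAA, 4.6% CAATAAA and 0.0396% AGGTCANAGGTCA. CCAAT and CAATAAA can share letters, and no match printed above did. These matches describe letters, and no binding was measured.

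Every row of the table already differs between control and PFOA, so that the number of loci called says nothing about the loci. Adjusted p-values over such rows do not give a share of false calls. The smallest fold between the scaled group totals was 1.95 over all rows and 1.96 over the loci. By the sign of the difference 174 loci were higher and 179 lower in PFOA. The filter on low counts kept 293 loci, 150 higher and 143 lower, and edgeR's quasi-likelihood test called every one at an adjusted p of 0.05, the largest being 0.0256. The background is the same: of all 1608 rows tested, the share called was 100%, with 50% higher and 50% lower. The remaining 60 loci had too few counts, at most 69 in any library apart from MSTRG.23025, and 24 of them were higher and 36 lower. Control and PFOA values did not overlap in 349 of the 353 loci, and did not overlap in 97.1% of all rows.

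The size of the difference was unequal between the classes. Among tested loci that rose, the median log2 fold change was 3.16 for u, 1.33 for i and 1.49 for x, and over all loci that rose it was 2.26, against 1.71 over all rows that rose. Among those that fell it was -1.95 for u, -1.76 for i and -3.26 for x, and -1.94 over all loci against -1.80 over all rows. Per length, the median level of the loci was 16.1 CPM (counts scaled to a fixed total of listed counts per library) per kb. This was close to the 16.5 of protein_coding rows and above the 3.77 of the 199 rows typed lncRNA, lincRNA or antisense. Length differs in kind between rows: the protein_coding row Slc8a1, for one, has 170495 bases and class codes that include i and u. Levels per kb are therefore not fully comparable between types. The classes also differed in level, with a median of 11.6 CPM for u, 55.7 for i and 77.2 for x. Within i, loci opposite to their host (median 9.79 CPM) that rose had a median log2 fold change of 2.38. For same-strand i loci (median 123 CPM) it was 1.25. The fall of x rests on 11 tested loci. The part of level in these unequal sizes was not tested. All of these medians are over rows selected to differ, and describe the listed rows only.

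**Figure D1:**
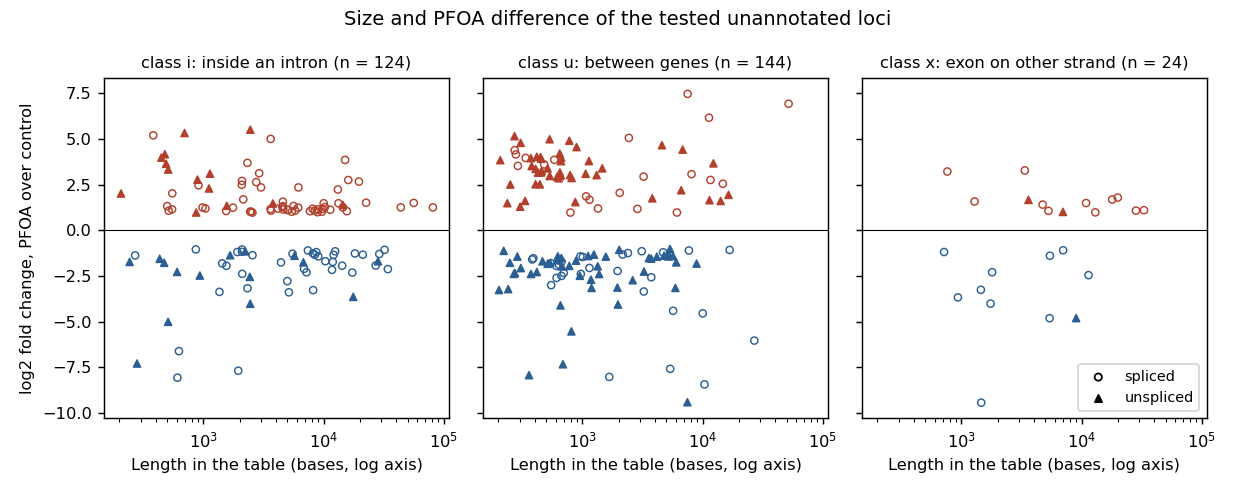
Length in bases (log axis) against the log2 fold change of PFOA over control for the tested loci of class i (124), u (144) and x (24), with spliced loci as open circles and unspliced loci as filled triangles, red where higher and blue where lower. The unspliced u loci under 1500 bases that rose lie mostly above a log2 fold change of 2, and the long spliced i loci that rose lie mostly between 1 and 2.

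The 6 libraries held 1771120 to 2269892 listed counts, and the loci took 3.91% to 5.23% of them in control and 3.31% to 3.77% in PFOA. The upper control value came from control replicate 1, where 1 locus, MSTRG.23025, alone had 15187 counts, and without it that share was 4.41%. Of 7 colon epithelial markers Car1, Slc26a3 and Muc2 had 5 listed rows (4 higher, 1 lower with PFOA), which summed to 68940 to 114900 CPM in control and to 162400 to 313700 CPM in PFOA. The 1 lower row was Slc26a3, with 44864, 60351 and 56990 counts in the controls and 18783, 6770 and 7256 with PFOA. A Muc2 row, which rose, averaged 52900 CPM, so that the sum does not stand for each marker. The 3 of 4 adipocyte markers with a row (Adipoq, Cfd and Plin1) summed to 1.36 to 18.0 CPM in control and to 1.41 to 372 CPM in PFOA, and the 2 of 5 small intestinal markers (Alpi and Sis) to 22.9 to 45.4 and 526 to 882 CPM. Of 3 pancreatic markers Cela1 stood at 926 to 1575 CPM in control and 54.9 to 69.0 in PFOA. The 3 blood markers (Alas2, Hba-a1 and Hbb-bs) summed to 546 to 1432 and 120 to 206 CPM, and Cnn1, the 1 of 5 smooth muscle markers with a row, stood at 2546 to 5907 and 1474 to 2089 CPM. None of the 5 immune or the 5 enteric neuron and glia markers had a row, which in a table of differing rows does not show that they were at 0. Their part in the differences of the loci was not tested, and in whole tissue fewer cells of a type and less RNA per cell cannot be told apart.

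Between genes, the most abundant locus that differed was also among those that fell furthest. MSTRG.5233, an unspliced u locus of 7477 bases (chr12:85401641-85409117, minus strand), had 7966, 4611 and 5796 counts in control replicates 1, 2 and 3 and 5, 17 and 4 counts in the PFOA replicates. Each control library was thus far above each PFOA library. The log2 fold change was -9.41 ± 0.61 (SE; adjusted p = 4.69e-05, edgeR), and -10.25 without PFOA replicate 2. The nearest M21 protein-coding gene, Tmed10, which encodes a cargo receptor of the early secretory pathway, lies 26794 bp away, and RefSeq places the lncRNA Gm29709 and the pseudogene Gm51954 over the locus.

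A pair of overlapping loci, MSTRG.5089 (class u, chr12:77129073-77191759) and MSTRG.5090 (class x,u, chr12:77150831-77266088), both on the minus strand, share a position next to and opposite Fut8, the core fucosyltransferase of N-glycans. MSTRG.5089 had 1600, 858 and 1580 counts in the controls and 1, 3 and 7 with PFOA, and MSTRG.5090 had 2318, 1024 and 1695 against 8, 9 and 15. The groups lay far apart in both loci, whose reads may in part be the same. Their log2 fold changes were -8.44 ± 0.57 and -7.25 ± 0.45, and the former was -9.22 without PFOA replicate 3.

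MSTRG.1247, the spliced locus whose 5′ end sits at the Gm31713 start shown above, had 76, 138 and 156 counts in the controls and 0, 1 and 0 with PFOA. Its PFOA libraries were thus at or next to zero. The fold was 359, with a 95% Clopper-Pearson interval of 64.0 to 14210 that covers counting error only, as all such intervals below do. MSTRG.161 (359 bases, unspliced, chr1:7994537-7994895) had 191, 68 and 84 counts against 1, 0 and 0, a fold of 333 (59.3 to 13180). MSTRG.24408 (chr9:116444584-116445271) had 18, 25 and 18 counts in the controls and none with PFOA, which makes it at least 19.7-fold lower at a floor of 3 counts over the group. These 3 loci are far less abundant than MSTRG.5233, and none has a listed protein_coding row within 100 kb. The fitted log2 fold change of MSTRG.1247 was -8.03 and became -9.89 once PFOA replicate 2 was left out, and that of MSTRG.161 was -7.93 and became -9.87 once PFOA replicate 1 was left out.

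Another locus that fell lies beside Car4, the membrane-bound carbonic anhydrase of the colon epithelium. MSTRG.3837 (spliced, 5374 bases, chr11:84924080-84935121, minus strand) had 274, 402 and 388 counts in the controls and 1, 1 and 3 with PFOA, and the groups were far apart. Its log2 fold change was -7.59 ± 0.45 (adjusted p = 4.69e-05, edgeR), and -8.21 without PFOA replicate 3. Car4 itself, 22665 bp away on the other strand, had 7983, 16679 and 15340 counts in the controls and 3801, 6129 and 5301 with PFOA, a log2 fold change of -1.36 ± 0.32. Further spliced u loci that fell were MSTRG.2617 (1531, 3307 and 2725 against 51, 34 and 24 counts) and MSTRG.9215 (541, 409 and 869 against 35, 18 and 20). MSTRG.9215 lies 17584 bp from Tmprss2, a transmembrane serine protease of epithelia, whose own row fell by 1.44 on the log2 scale, while MSTRG.9215 fell by 4.55.

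The largest rise between genes was uneven across libraries. MSTRG.12577 (spliced, 7508 bases, chr2:50990775-51000592) had 26, 2 and 3 counts in the controls and 4537, 321 and 182 with PFOA. All PFOA libraries were above all control libraries, but PFOA replicate 1 held most of the counts. The log2 fold change of 7.47 ± 1.69 fell to 4.52 with PFOA replicate 1 left out, and was 9.35 with control replicate 1 left out and 6.88 with control replicate 3 left out.

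MSTRG.14094, a spliced locus of 51976 bases at the Gm30235 start shown above (chr3:52649874-52717864, plus strand), was high in all 3 PFOA libraries. It had 16, 43 and 24 counts in the controls and 1861, 3480 and 4700 with PFOA, so that each PFOA library was far above each control library. Its log2 fold change was 6.93 ± 0.52 (adjusted p = 7.13e-05, edgeR). MSTRG.17386, at the Gm32558 start, had 33, 61 and 57 against 230, 440 and 467 counts and a log2 fold change of 2.94 ± 0.36, and it lies 18456 bp from Kit, the stem cell factor receptor gene, with no listed protein_coding row within 100 kb.

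MSTRG.3083 (spliced, 2434 bases, chr11:31773987-31779569) had 8, 19 and 10 counts in the controls and 511, 324 and 355 with PFOA, with a log2 fold change of 5.06 ± 0.45. MSTRG.22648 and MSTRG.22649, neighbours on the minus strand of chromosome 8, had 42, 47 and 40 against 288, 385 and 390 counts and 112, 117 and 136 against 549, 727 and 802 counts. Replicates of both neighbours were close together in each group, and their log2 fold changes were 3.07 ± 0.25 and 2.55 ± 0.22. On the Y chromosome MSTRG.25243 (unspliced, 4591 bases, chrY:805618-810208) had 11, 14 and 19 counts in the controls and 405, 300 and 365 with PFOA, a log2 fold change of 4.66 ± 0.33. It lies 8213 bp from Zfy1, a Y-linked zinc finger gene, whose row rose from 0, 6 and 0 counts to 33, 16 and 17, a log2 fold change of 3.44 ± 0.93.

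MSTRG.10340 (spliced, 11304 bases, chr17:81771360-81782819) had 0, 18 and 5 counts in the controls and 136, 779 and 765 with PFOA. The groups did not overlap, but control replicate 1 and PFOA replicate 1 were each the lowest of their group. Its log2 fold change was 6.16 ± 1.06, and 5.46 without control replicate 1 and 7.71 without control replicate 2. In M21 it lies 32983 bp from Slc8a1, the sodium-calcium exchanger NCX1, but the listed Slc8a1 row reaches over it. That row had 7143, 11049 and 11973 counts in the controls and 23728, 34647 and 30398 with PFOA, a log2 fold change of 1.6 ± 0.28.

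MSTRG.11638 lies 623 bp before Cyp2c65, a cytochrome P450 of the Cyp2c cluster, on the same strand. The locus had 36, 252 and 37 counts in the controls and 1155, 560 and 372 with PFOA, and the lowest PFOA library was above the highest control library by little. Its log2 fold change was 2.76 ± 0.87, against 5.84 ± 0.52 for Cyp2c65, which had 68, 100 and 41 counts in the controls and 5490, 2837 and 3101 with PFOA. The call of the locus was lost without control replicate 1 (2.19, adjusted p = 0.0582, edgeR) and without control replicate 3 (2.18, adjusted p = 0.0513), and its log2 fold change was 4.32 with control replicate 2 left out and 2.03 with PFOA replicate 1 left out. MSTRG.21692, 16374 bp from Muc2, the main gel-forming mucin of the colon, had 135, 259 and 257 against 400, 1287 and 775 counts, with a log2 fold change of 1.94 ± 0.43 beside 1.65 ± 0.50 for Muc2.

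**Figure D2:**
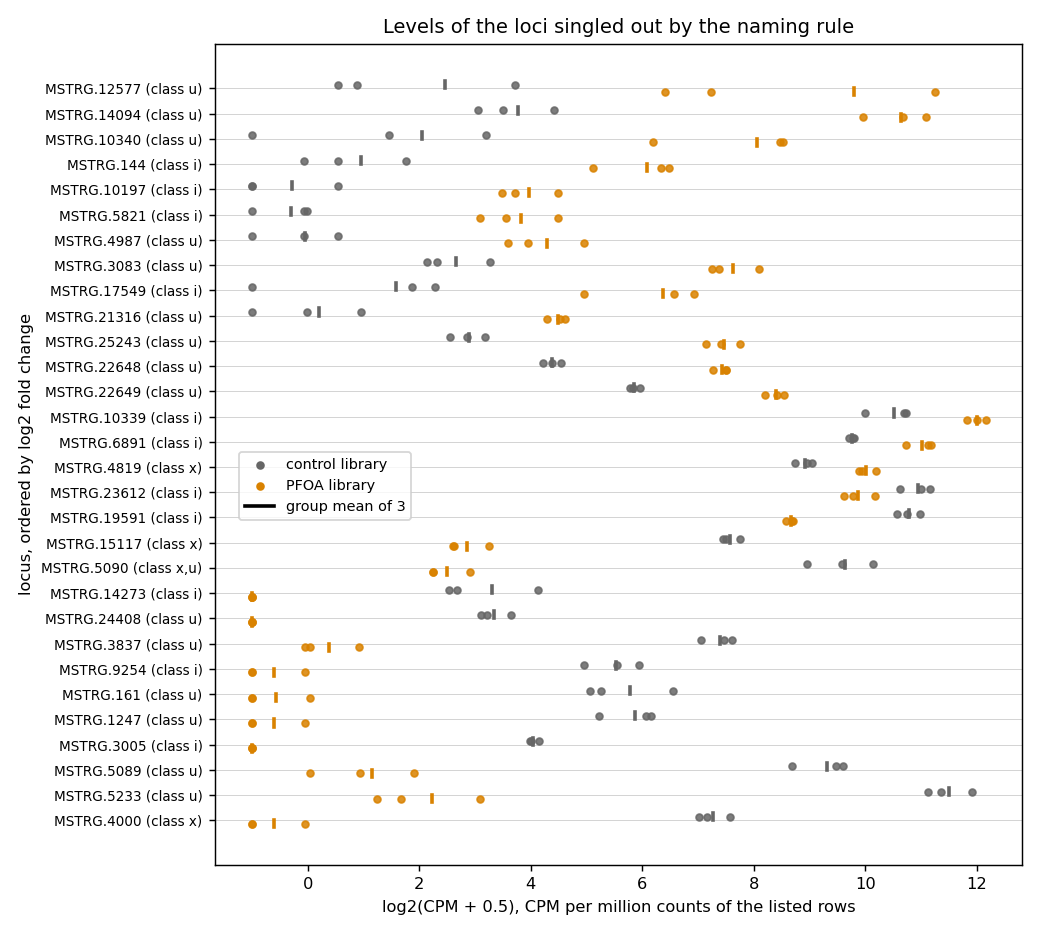
log2(CPM + 0.5) of each control (grey) and PFOA (orange) library for the 30 loci singled out by the naming rule, ordered by log2 fold change, with a short bar at the mean of 3 libraries. The naming rule takes only loci whose groups are apart, so what the plot shows is the level and the spread within groups, such as the 3 PFOA values of MSTRG.12577 that reach from 182 to 4537 counts.

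Within introns, most loci with a listed host gene had the direction of that host. By the strand listed for each locus, 96 of the 145 i loci lay on the strand of their host gene and 49 on the other. The strand setting of the libraries is not stated, so that same-strand and opposite-strand loci are not told apart with certainty. A host gene was given for 176 loci, but a host with a row of its own was found for only 77 loci of any class, in 46 hosts. Of the i loci, 34 of the 96 on the same strand and 39 of the 49 on the other had no listed host row. Among the 77, 74 had the direction of the host row. Since all listed rows differ, this agreement covers only hosts that differ themselves. For the 59 same-strand i loci with a tested host row, the median absolute difference between the log2 fold changes of locus and host was 0.17, and 56 were within 1. Across these 59 pairs Pearson's r was 0.91 and Spearman's rho 0.90, as a description only, because several loci share a host, all share the libraries, and reads of intron and host may stem from the same transcript.

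**Figure D3:**
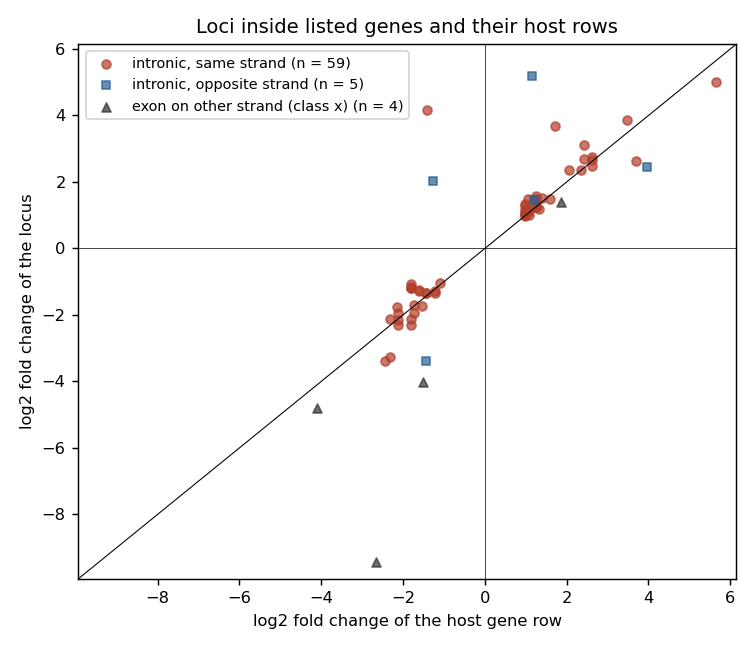
log2 fold change of the host gene row (horizontal) against that of the locus (vertical) for 59 same-strand intronic loci (circles), 5 opposite-strand intronic loci (squares) and 4 loci of class x (triangles), with the line of equality. All but 3 circles lie within 1 of the line, while squares and triangles scatter, down to -9.44 for the locus opposite Ttll6.

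The 2 most abundant loci that rose were of this kind. MSTRG.10339, a spliced locus of 56276 bases in Slc8a1, had 2089, 3418 and 3758 counts in the controls and 6801, 9758 and 8814 with PFOA, and its log2 fold change of 1.5 ± 0.27 stood beside 1.6 for the host. MSTRG.6891, with 81242 bases the longest locus, had 1819, 1854 and 1856 counts against 3160, 4939 and 4794. The control libraries of MSTRG.6891 were almost alike and all PFOA libraries were higher. Its log2 fold change was 1.25 ± 0.21, and its host Lrmda, a leucine-rich repeat gene, had 1.24. Altogether 5 loci lay in Lrmda, with log2 fold changes from 1.25 to 1.39.

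Among the abundant loci that fell, MSTRG.19591 in B4galnt3, an N-acetylgalactosaminyltransferase, had 4179, 3161 and 3823 counts in the controls and 772, 887 and 825 with PFOA. The groups were well separated, and the log2 fold change was -2.12 ± 0.21 beside -2.32 for the host. MSTRG.23612 in Zbtb16, which encodes the transcription factor PLZF, had 4201, 4749 and 3509 counts against 1462, 1869 and 2497. Its PFOA libraries were spread over a wider range, all below control, and its log2 fold change was -1.07 ± 0.25. It is the mildest of 6 loci in Zbtb16, whose log2 fold changes ran from -2.32 to -1.07 around the -1.80 of the host. MSTRG.23610, the strongest, had 1821, 2389 and 2168 counts against 273, 378 and 607, and MSTRG.23611 had 468, 712 and 618 against 60, 111 and 241, a log2 fold change of -2.11 that was -2.74 without PFOA replicate 3.

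The next 4 hosts, among the 46 with a listed row, were picked after their values were seen and stand for no wider group. Ppara encodes the receptor PPAR-alpha, which PFOA is known to activate. MSTRG.8224 in an intron of Ppara had 40, 47 and 71 counts in the controls and 259, 378 and 362 with PFOA, and MSTRG.8225 had 15, 25 and 14 against 136, 203 and 123. All PFOA libraries were several times above all control libraries in both, and the log2 fold changes were 2.70 ± 0.29 and 3.12 ± 0.38, with 2.43 ± 0.21 for the Ppara row. MSTRG.19519 in Pparg, the receptor that drives fat cell genes, had 151, 196 and 187 against 953, 813 and 848 counts, a log2 fold change of 2.35 ± 0.24 beside 2.07 for Pparg. MSTRG.2505 in Nr1h4, the bile acid receptor FXR, had 6, 11 and 8 against 62, 147 and 113 counts. This locus rose further than its host, with a log2 fold change of 3.69 ± 0.44 against 1.72 ± 0.23, and the difference between them was not tested. MSTRG.14982 in Elovl6, a fatty acid elongase, had 258, 456 and 479 against 1398, 1024 and 800 counts and a log2 fold change of 1.51 beside 1.4 for Elovl6.

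In several other hosts with 3 or more intronic pieces all pieces had one direction. In Chn2, a GTPase-activating protein for Rac, MSTRG.18922 had 28, 23 and 35 counts in the controls and 171, 125 and 170 with PFOA, MSTRG.18923 had 168, 298 and 173 against 1545, 1155 and 1205, and MSTRG.18924 had 91, 135 and 102 against 860, 606 and 655. All 3 showed the same separation, with log2 fold changes of 2.49, 2.67 and 2.75 beside 2.63 for Chn2. In Htr4, a serotonin receptor gene, MSTRG.10899 had 2095, 2802 and 2533 against 552, 689 and 652 counts, MSTRG.10900 had 886, 1192 and 1224 against 212, 235 and 266, and MSTRG.10901 had 409, 525 and 471 against 89, 90 and 97. These fell by 1.93, 2.17 and 2.30 on the log2 scale, and Htr4 by 2.13. The 7 loci of Ptprd, a receptor tyrosine phosphatase, and the lncRNA Gm11252 next to it ran from 1.01 to 1.32 (host 0.97), and the 4 of Synpo2, an actin-binding protein without a listed row, from 1.06 to 1.19. Of these 11, MSTRG.15617, MSTRG.15619 and MSTRG.15624 in Ptprd and MSTRG.14920 in Synpo2 lost the call without control replicate 3 (adjusted p up to 0.114, 0.0847, 0.0609 and 0.0503 over the libraries left out, edgeR). MSTRG.15617 also lost it without control replicate 1 or PFOA replicate 1, and MSTRG.15619 without control replicate 1.

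Single pieces with large changes were MSTRG.17549 in Prkg2, the cGMP-dependent protein kinase II of the intestinal epithelium, MSTRG.23651 in Arhgap20 and MSTRG.15876 in Rab3b. MSTRG.17549 had 0, 9 and 7 counts in the controls and 57, 202 and 262 with PFOA, and its log2 fold change of 5.0 ± 0.88 (4.31 without control replicate 1) stood beside 5.65 for Prkg2. MSTRG.23651 had 20, 52 and 46 against 184, 632 and 884 counts and a log2 fold change of 3.85 beside 3.47 for Arhgap20. MSTRG.15876 had 162, 298 and 347 against 27, 29 and 17 counts and fell by 3.40, beside -2.43 for Rab3b. In all 3 the groups were apart and host and piece had one direction.

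The 3 loci that went against their host row were MSTRG.10231, MSTRG.11969 and MSTRG.19691. MSTRG.10231, an unspliced same-strand piece of 477 bases in L3mbtl4, had 4, 10 and 5 counts in the controls and 150, 103 and 78 with PFOA, a log2 fold change of 4.16 ± 0.51, while L3mbtl4 went from 67, 35 and 38 counts to 13, 16 and 22, a log2 fold change of -1.42 ± 0.40. MSTRG.11969, an opposite-strand piece of 206 bases in Sfmbt2, had 5, 7 and 7 against 28, 21 and 26 counts, a log2 fold change of 2.01 ± 0.35, and Sfmbt2 had -1.26 ± 0.43. MSTRG.19691, opposite to Cd9, a tetraspanin, had 1, 0 and 0 against 7, 3 and 9 counts, a fold of 19.6 (3.11 to 814) with no test at these low counts, and the Cd9 row had a log2 fold change of -1.14. Locus and host moved apart in these 3, each of which is small and sparsely counted beside most intronic loci.

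Other i loci lay opposite to their host. MSTRG.3005 (spliced, chr11:22141025-22142582), opposite to Ehbp1, had 32, 32 and 38 counts in the controls and none with PFOA, at least 33.0-fold lower. MSTRG.9254, at the Gm52305 start shown above and opposite to Zdhhc14, a palmitoyltransferase gene, had 63, 126 and 102 counts against 0, 1 and 0. The PFOA libraries of both were at or next to zero. For MSTRG.9254 the fold was 282 (50.3 to 11190), and its fitted log2 fold change of -7.69 was -9.55 once PFOA replicate 2 was left out. MSTRG.14273 (280 bases, unspliced) had 35, 11 and 13 counts against none and was at least 19.1-fold lower, with a fitted log2 fold change of -7.29, or -6.64 once control replicate 1 was left out. Lrat, the retinol-storing acyltransferase 69526 bp from it, had a log2 fold change of 1.10, in the other direction.

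Of the 22 i loci that were higher opposite to a host, 14 were tested, with a median log2 fold change of 2.38, and the 3 that follow are those with the largest changes. MSTRG.144 (unspliced, 2454 bases, chr1:4943708-4946161), opposite to Rgs20, a regulator of G protein signalling, had 6, 2 and 1 counts in the controls and 64, 171 and 190 with PFOA. The groups were well apart, with a log2 fold change of 5.51 ± 0.67 and of 6.36 without control replicate 1. MSTRG.10197, opposite to Tmem232, had 0, 2 and 0 against 41, 27 and 23 counts, a fold of 46.9 (12.6 to 393). Its fitted log2 fold change of 5.33 was 7.97 with control replicate 2 left out, and 4.71 and 4.67 with control replicates 1 and 3 left out. MSTRG.5821, opposite to Stard3nl, had 1, 0 and 1 against 21, 17 and 47 counts, a fold of 43.8 (11.8 to 368), while the Stard3nl row had a log2 fold change of 1.16 ± 0.21.

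Antisense to exons, the strongest member was at or next to zero in every PFOA library. MSTRG.4000 (class x, spliced, 1461 bases, chr11:96144235-96147663, minus strand), opposite to Ttll6, a tubulin polyglutamylase, had 393, 268 and 315 counts in the controls and 0, 1 and 0 with PFOA. The fold was 947 (170 to 37430), and the fitted log2 fold change of -9.44 was -11.30 without PFOA replicate 2. Ttll6 itself had 2247, 1427 and 1614 counts against 71, 327 and 434, a log2 fold change of -2.67 ± 0.56. Both strands were lower in PFOA, and without a stated strand setting their reads cannot be told apart with certainty.

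MSTRG.15117, an unspliced x locus of 9015 bases opposite to Samd13, had 371, 445 and 387 counts in the controls and 17, 12 and 12 with PFOA, and replicates were close in both groups. Its log2 fold change was -4.81 ± 0.32 (adjusted p = 4.69e-05, edgeR), and the row that joins 4930503B20Rik and Samd13 went from 128, 90 and 101 counts to 1, 10 and 7, a log2 fold change of -4.10 ± 0.57. MSTRG.16145, opposite to Azin2, an antizyme inhibitor, had 768, 1392 and 1511 against 26, 64 and 37 counts and fell by 4.81 ± 0.42. MSTRG.18898 lies opposite to the posterior homeobox genes Hoxa9 and Hoxa10 and had 143, 87 and 86 counts against 1, 12 and 6. All its PFOA libraries were below all control libraries, and the log2 fold change was -4.01 ± 0.63 and -4.78 without PFOA replicate 2, beside -1.51 ± 0.23 for Hoxa10. MSTRG.18903, a u locus of 2619 bases 2384 bp from Hoxa13, had 69, 64 and 45 against 5, 12 and 9 counts and fell by 2.73 ± 0.40.

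Rises of x loci were smaller. MSTRG.4819, the most abundant spliced x locus (33052 bases, opposite to the lncRNA Atxn7l1os1), had 1080, 1024 and 949 counts in the controls and 1781, 2486 and 2125 with PFOA, a log2 fold change of 1.10 ± 0.20. MSTRG.19318, which lies within Mgll, the monoacylglycerol lipase, had 223, 240 and 325 against 933, 947 and 737 counts, and its log2 fold change of 1.79 ± 0.25 stood beside 1.37 ± 0.22 for Mgll. The groups were apart in both.

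A further set was seen only after the values were known and is given as a description without a test. Of 119 unspliced loci under 1500 bases, 63 were higher in PFOA and 56 of these at least 4-fold, while 36 of the 56 that were lower fell at least 4-fold. Over all rows, 508 of the 1035 that were higher and 502 of the 998 that were lower differed at least 4-fold. As shares of all 2033 rows in both directions these were 25% and 24.7%. The median level was 6.99 CPM for the 119 loci and 26.5 CPM over all rows, and the shares were not compared at like level. The part of level in them was not tested. The 56 loci, 43 of class u and 13 of class i, lay on 19 chromosomes, and 4 of them were within 10 kb of a listed protein_coding row. Their counts summed to 186, 413 and 199 in control replicates 1, 2 and 3 and to 3488, 2342 and 2377 in the PFOA replicates. They were thus low one by one, and no control library had more than 31 counts at any of them. PFOA replicate 1 was the highest library, by CPM, in 46 of the 56, and its part in the pattern was not tested. Their median CPM was 19.5, 12.4 and 14.4 in PFOA replicates 1, 2 and 3 and 0.973, 1.93 and 0.452 in the control replicates, an order of the groups that the choice of loci fixes.

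Examples from several chromosomes follow. MSTRG.7877 (448 bases, chromosome 15) had 8, 27 and 6 counts in the controls and 256, 190 and 193 with PFOA. MSTRG.3271 (489 bases, chromosome 11) had 13, 31 and 17 against 310, 216 and 207. MSTRG.18612 (408 bases, chromosome 6) had 6, 24 and 11 against 169, 119 and 119. In these 3 control replicate 2 was the highest control library and PFOA replicate 1 the highest PFOA library, and control replicate 2 was the highest control library, by CPM, in 35 of the 56 loci. For the 3 the log2 fold changes were 4.0 ± 0.59, 3.64 ± 0.44 and 3.36 ± 0.53. Without control replicate 2 they were 4.94 for MSTRG.7877 and 4.03 for MSTRG.18612. MSTRG.274 and MSTRG.275, both far from any coding gene on chromosome 1, had 4, 8 and 5 against 112, 57 and 59 counts and 4, 3 and 2 against 107, 52 and 50. Named by size were MSTRG.21316 (533 bases, chr7:119115942-119116474) and MSTRG.4987 (272 bases, chr12:66202218-66202489). MSTRG.21316 had 1, 3 and 0 against 45, 48 and 41 counts, with a log2 fold change of 4.98 ± 0.62 that was 6.18 without control replicate 2 and 4.29 without control replicate 3. MSTRG.4987 had 0, 2 and 1 against 57, 32 and 25 counts, a fold of 39.2 (13.1 to 193), and its fitted log2 fold change of 5.16 was 5.99 without control replicate 2 and 4.51 without control replicate 1.

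**Figure D4:**
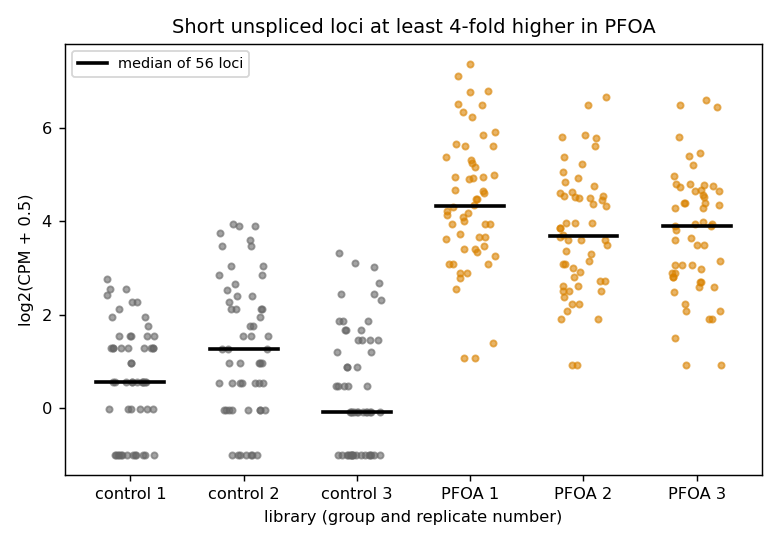
log2(CPM + 0.5) of the 56 unspliced loci under 1500 bases that were at least 4-fold higher in PFOA, 1 point per locus in each library, with black bars at the median. The loci were drawn for being higher in PFOA, so what the plot shows is the spread within groups: medians of 19.5, 12.4 and 14.4 CPM in the PFOA replicates and of 0.973, 1.93 and 0.452 CPM in the control replicates.

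Loci that lie together mostly moved together. Joined by a shared host or a gap of at most 10 kb, the 353 loci formed 294 groups, of which 261 held 1 locus and 33 held 2 to 7. Of the 33, 32 had one direction. The exception was the lncRNA gene 2610035D17Rik, where MSTRG.4338 (58, 13 and 33 counts against 7, 3 and 9) and MSTRG.4339 (109, 35 and 48 against 8, 10 and 9), 2 overlapping loci opposite to it, fell by 2.39 and 2.78, and MSTRG.4341 on its own strand (589, 696 and 530 against 1129, 1629 and 1219) rose by 1.17. Counted as groups with one direction, 139 were higher and 154 lower, beside 174 and 179 for the loci one by one. Loci of one group are often pieces of one host, and 14 of the 353 overlapped another locus. Listed protein_coding rows within 10 kb of one another also mostly shared their direction, in 112 of 132 rows counted one by one.

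The nearest listed protein_coding row was within 10 kb for 90 loci (25.5%), and 75 of these overlapped it. The direction was shared in 86 of the 90, that is in 63 of 66 i loci, 14 of 15 u loci and 8 of 8 x loci, with 1 locus under a joint code. For comparison, 132 of the 1220 protein_coding rows (10.8%) had another listed protein_coding row within 10 kb, and 112 of these 132 shared its direction. The comparison is not like for like. Loci that overlap a row may share its reads, and both rows of a neighbouring pair can enter the 132. The u loci were mostly far from listed genes, with a median distance of 1117 kb to the nearest listed protein_coding row against 62.4 kb for i loci. Of the 33 u loci that lay within 100 kb of one without touching it, 27 shared its direction.

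The u loci next to genes of the colon epithelium included both kinds. MSTRG.4795 (unspliced, 5937 bases) lies 64 bp from Slc26a3, the chloride-bicarbonate exchanger of the colon surface, on the same strand. It had 952, 1550 and 1109 counts in the controls and 210, 92 and 79 with PFOA, with all PFOA libraries far below control, and its log2 fold change of -3.16 ± 0.48 (-3.87 without PFOA replicate 1) stood beside -2.21 ± 0.50 for Slc26a3. MSTRG.18417 (spliced, 669 bases), 2522 bp from Cdx2, the homeobox factor of intestinal identity, on the other strand, was the 1 u locus of the 15 that went against its neighbour. It had 22, 29 and 35 counts in the controls and 7, 4 and 14 with PFOA, a log2 fold change of -1.72 ± 0.46, while Cdx2 went from 619, 1313 and 868 to 4617, 3549 and 4066 counts, a log2 fold change of 2.18 ± 0.33. The groups did not overlap in the locus or in Cdx2.

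Some loci were uneven within a group. MSTRG.23025 (class i, spliced, 3427 bases, chr8:123425807-123434532) had 15187 counts in control replicate 1 and 2 and 0 in the other controls, against 3, 0 and 4 in PFOA. It had too few libraries with counts to be tested, and its groups overlapped. MSTRG.7425 had 599, 1898 and 1837 counts against 19, 205 and 120, with a log2 fold change of -3.65 ± 0.79 that was -4.31 without PFOA replicate 2, and MSTRG.13424 had 616, 890 and 848 against 10, 233 and 188, with -2.46 ± 0.82. In the latter pair PFOA replicate 1 was far below the other PFOA libraries, and all PFOA libraries were below all control libraries. Over the libraries left out, the log2 fold change ran from -4.31 to -3.20 for MSTRG.7425 and from -2.95 to -1.95 for MSTRG.13424.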

How the data were processed

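Colon RNA of 3 control and 3 PFOA libraries was compared. Per the labels' protocols the library kit was SMARTER mRNA-Seq, and HISAT2, HTSeq and mm10 are named per the submitters' processing notes. The authors deposited raw read counts per row with class codes and positions. Not given in the sources used here are the assembly tool, the strand setting, how multi-mapped reads were counted, and how the rows were chosen. Counts of listed rows are not sequencing depths.

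The test was edgeR 4.0.16 under R 4.3.3 (filterByExpr, TMM, glmQLFit, glmQLFTest, two-sided) on the whole table, with Benjamini-Hochberg adjustment over 1608 rows. These rows already differ between the groups, so that the adjusted p-values do not give a share of false calls. For the same reason TMM had no known set of unchanged rows to rest on. The SE is the absolute log2 fold change divided by the square root of F. Folds compare TMM-scaled group totals; a group without counts was set to a floor of 3. Floors and 95% intervals cover counting error only. Positions were compared with GENCODE M21 and RefSeq GRCm38.p6.

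The members, lists and tests were chosen with earlier results of these data known. Named loci were those called, with groups apart and at least 1 CPM on average: the 10 largest changes and 5 smallest p-values in each direction, the 5 most abundant, the most abundant spliced locus of each class, and listed protein_coding rows within 100 kb of these. Other loci were named after their values were seen. Replicates correlated at 0.951 to 0.984 (log2 CPM), and no pair agreed within sampling noise. Replicate 1 was the least alike in both groups. In PFOA it correlated at 0.953 and 0.951 with replicates 2 and 3, against 0.983 between these. In control it correlated at 0.959 and 0.972 with them, against 0.984. The edgeR step was tested on simulated data in which most rows did not change. The listed rows all differ, so that this check does not cover their setting. Alternatives were DESeq2 1.42.0, other scalings and filters, a replicate block, each library left out, and other distance limits.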

Additional observations from a re-analysis of the deposited data

How the results depend on the processing

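None of the 293 called loci changed direction under any alternative that gave it a value. As all listed rows already differ between these same libraries, kept directions and calls are no independent support for the loci. The untested MSTRG.23025 is lower in PFOA through control replicate 1 alone. Of the 293 loci called, 288 kept call and direction by DESeq2 (4 lost it and MSTRG.12577 had no adjusted p), 291 with library totals alone, and 293 with RLE size factors and with either other filter. Without 1 library the filter kept 306 to 311 loci, and of these 138 to 157 were called higher and 144 to 153 lower. Of the 293 loci, 269 to 288 kept the call in these fits. In all, 38 lost it without at least 1 library, 24 of them without control replicate 3 and 18 without control replicate 1. In 68 loci leaving out some library moved the fold change by over 1.5 times. With no filter all 174 higher and 179 lower loci were called, MSTRG.23025 among them, whose counts lie in 1 library. Library totals alone moved the median log2 fold change of all tested rows from -0.031 to -0.245, and the share of higher loci stayed at 51.2%.

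With the replicate number as a block, 150 loci were higher and 143 lower, as without it. Deviations from the group means correlated at 0.114, -0.031 and 0.102 between libraries of the same number, and 3 of the 6 libraries correlated best with their own number, so that the numbers were not taken as a pairing of libraries. Limits of 5 and 50 kb gave 85 and 111 loci near a listed protein_coding row, 81 and 100 of them in its direction. On the same strand these were 75 and 74, and for any listed row with a reference type 109 and 104. Loci with few counts set a limit of their own: with 1 to 3 counts in a group, the interval of the fold spans more than an order of magnitude.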
